A study of Bos taurus with 29 samples.

Results

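DEAD and DEAH box proteins are ATP-driven enzymes that unwind short RNA duplexes or strip proteins from RNA, and they are named for the amino acids of a conserved ATPase motif. Members act at nearly every step in the life of a messenger RNA, from splicing and export to storage, translation and decay, and many others assemble ribosomes in the nucleolus. A growing oocyte stores messenger RNA under repression, and it largely stops transcribing before meiotic resumption. At resumption it selectively lengthens or shortens poly(A) tails, so stored transcripts are translated or removed without new synthesis. The family was taken as every row of the expression table whose symbol starts with DDX or DHX followed by a digit. This gave 50 genes of 13502 in all, 34 DDX and 16 DHX.

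The messenger RNA was measured in single wild-type cattle oocytes from FSH-treated donors. Germinal vesicle (GV) oocytes were immature and had no culture before collection. IVM oocytes were matured for 22 h in their cumulus complexes in medium with 50 ng/mL EGF and 5 µg/mL FSH. CNP_IVM oocytes first spent 6 h in the same medium without EGF but with CNP at 200 nM, and then had the same 22 h of maturation. CNP, or C-type natriuretic peptide, is made by follicle cells and keeps oocytes in meiotic arrest. The series title names the effect of this pre-maturation step on the cytoplasm as its question. CNP and the longer culture, 28 h in all, cannot be told apart, because no oocytes were cultured for 6 h without CNP. The matured oocytes were at metaphase II as judged by the polar body, while the GV oocytes differ from them in stage, culture and hormones together.

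The table held 7 oocytes of GV, 8 of IVM and 7 of CNP_IVM, while 7 more samples with labels were not analysed here. With no donor or culture in the labels, a group's oocytes may come from the same animal, so a group counts as 1 sample and no test was made between groups. Ranges show the spread between oocytes only. Library totals lay between 20159662 and 39340040 reads, and 11852 genes reached 1 CPM in at least 6 libraries. CPM scales the reads of a gene by the total of its library, and the libraries were primed on poly(A), so the amount of a transcript, its tail length and the rest of the library cannot be told apart. All 12 oocyte markers looked for were present in every group. The summed level of 20 cumulus and granulosa markers was 665 to 1085 CPM in GV, 394 to 668 CPM in IVM and 276 to 357 CPM in CNP_IVM oocytes. STAR, a steroidogenic transporter, averaged 657 CPM over GV, 316 CPM over IVM and 93.9 CPM over CNP_IVM oocytes. Other markers of the list went the other way: HAS2, a hyaluronan synthase, averaged 16.3, 77.1 and 118 CPM in the same order, and PTGS2, a prostaglandin synthase, 13.4, 38.0 and 37.6 CPM. Summed levels of 7 blood and immune markers were 209 to 380 CPM in GV, 13.7 to 85.1 CPM in IVM and 5.47 to 27.3 CPM in CNP_IVM oocytes, most of it from VWF, whose GV mean was 225 CPM. Of 25 cumulus and granulosa markers and 12 blood and immune markers looked for, only 20 and 7 were among the listed genes. None of the markers found was at 0 in every oocyte. The part of other cells in the differences below was not tested. GV replicate 9 is titled GV, although its treatment is labelled as in vitro maturation, and it stood apart from the other GV oocytes, with 9381 genes at 1 CPM or more against 11311 to 11798. Helicase differences that it moved past 2-fold, to the opposite sign or by over 0.3 on the log2 scale are given with and without it. Differences of the other genes named below are given with that oocyte only.

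Of the 50 helicases, 49 passed the filter on low values, and only DHX34, a decay factor, did not, with a highest value of 1.50 CPM in any oocyte. A difference below is the log2 difference of group means, each with 1 CPM added, which understates the differences of low genes. Levels are given as the lowest, median and highest oocyte of a group, in CPM. Levels of different genes are not compared, since transcript length enters them.

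In IVM against GV oocytes 8 helicases were at least 2-fold higher, 16.3% of the 49, where 15.9% of all genes passed the same limit. Another 8 were at least 2-fold lower, again 16.3%, where 33.0% of all genes were. In CNP_IVM against GV oocytes 11 were higher, or 22.4%, against 15.3% of all genes, and 10 were lower, or 20.4%, against 42.0% of all genes. The median difference of the helicases was 0.26 in IVM against GV, where that of all genes was -0.28, and -0.08 in CNP_IVM against GV, where that of all genes was -0.61. The helicase median thus lay 0.55 and 0.53 above that of all genes in the comparisons that share the GV oocytes. With the libraries rescaled by TMM-like factors this gap was 0.57 and 0.64, and with quantile normalization it was 0.45 and 0.33. These scalings moved the median of all genes to 0.05 and 0.15 in IVM against GV, and to -0.03 and 0.14 in CNP_IVM against GV.

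The 8 helicases higher in IVM oocytes were DDX3X, DDX43, DHX35, DHX15, DDX42, DHX40, DHX57 and DDX55. The 8 lower ones were DDX39A, DDX28, DDX56, DHX58, DDX39B, DDX49, DDX47 and DDX19B. In CNP_IVM oocytes the 11 higher ones were DDX3X, DDX43, DDX18, DDX46, DDX24, DDX52, DHX15, DDX21, DHX36, DHX40 and DHX29. The 10 lower ones were DDX39A, DDX28, DDX56, DHX58, DDX39B, DDX49, DDX47, DDX41, DDX1 and DDX19B. Among genes called at least 2-fold apart, the share called higher over all genes was 32.4% in IVM against GV and 26.8% in CNP_IVM against GV as deposited, 48.7% and 47.5% with TMM-like factors, and 52.3% and 52.6% with quantile normalization. The helicase counts moved with them, to 18 higher and 6 lower in IVM against GV and to 20 higher and 8 lower in CNP_IVM against GV with TMM-like factors. The shares of all genes were then 25.2% and 26.5% in IVM, and 28.2% and 31.2% in CNP_IVM.

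Counted another way, every IVM oocyte lay above every GV oocyte for 6 helicases, or 12.2%, where this held for 11.5% of all genes. Every IVM oocyte lay below every GV oocyte for another 6, or 12.2%, against 19.9% of all genes. Every CNP_IVM oocyte lay above every GV oocyte for 12 helicases, or 24.5%, against 12.9% of all genes, and below for 9, or 18.4%, against 28.0% of all genes. Without GV replicate 9 these counts were 11 and 8 in IVM, or 22.4% and 16.3%, where the shares of all genes were 14.0% and 25.6%. In CNP_IVM they were 15 and 13, or 30.6% and 26.5%, where the shares of all genes were 15.1% and 36.1%. At 2-fold without that oocyte, 9 helicases were higher and 8 lower in IVM, and 12 higher and 13 lower in CNP_IVM, where the shares of all genes were 16.4%, 31.7%, 14.9% and 40.5%.

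**Figure D1:**
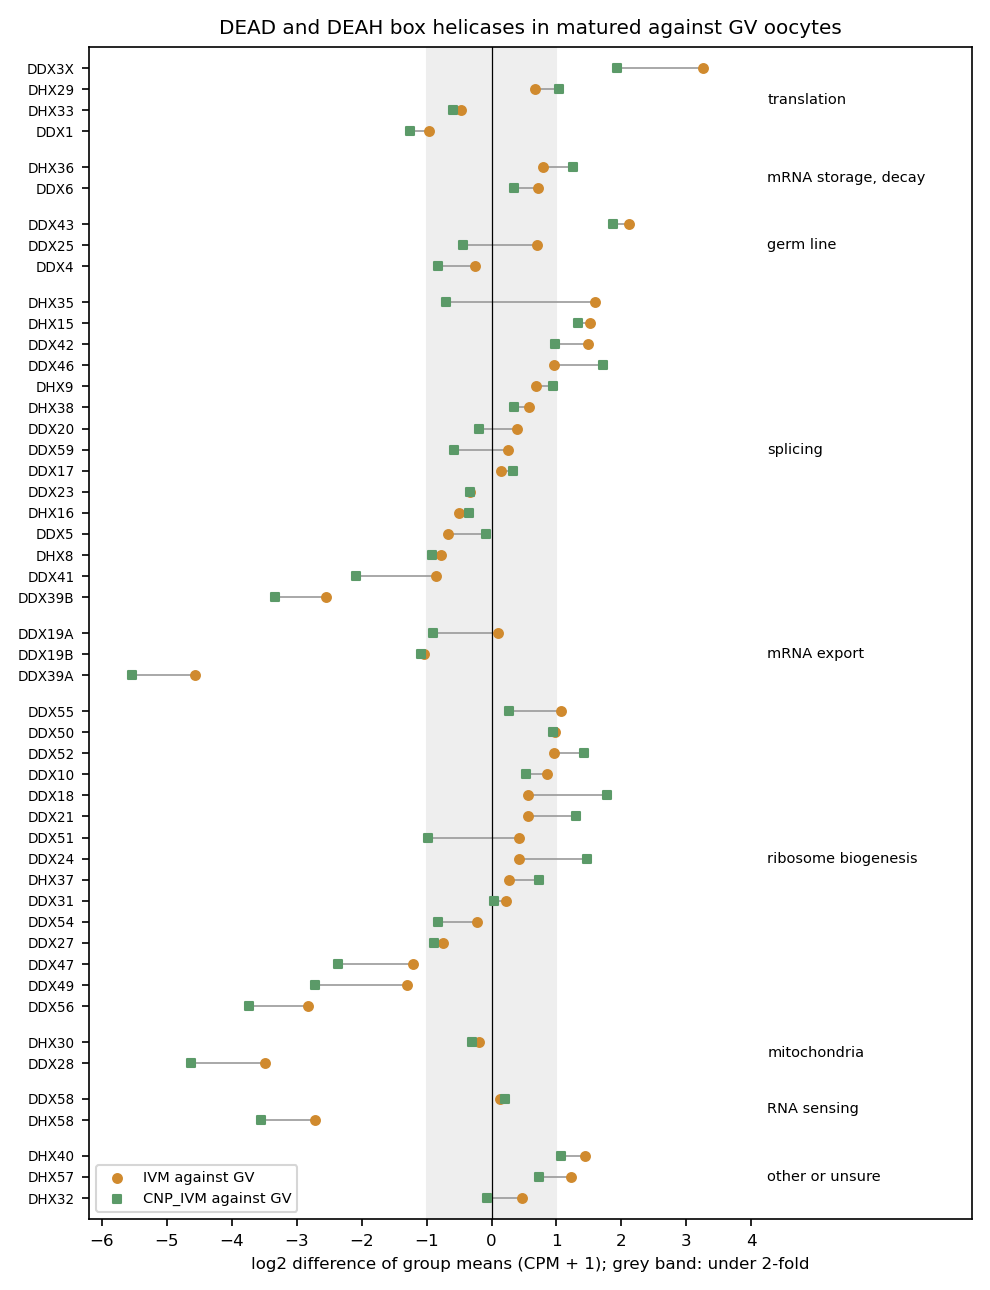
Log2 difference of group means (CPM + 1) against GV oocytes for the 49 helicases past the filter, ordered by role; circles are IVM against GV, squares CNP_IVM against GV, and the grey band marks differences under 2-fold. DDX3X stands at 3.25 and 1.94, and DDX39A at -4.56 and -5.53, while most members lie within or near the band.

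Translation was the first role examined. DDX3X, which opens structured messenger RNA leaders for the scanning ribosome, was at 76.9, 111 and 160.4 CPM in GV oocytes, at 682, 1087 and 1544 CPM in IVM oocytes and at 292, 423 and 701 CPM in CNP_IVM oocytes. All matured oocytes were above all GV oocytes, and the highest CNP_IVM oocyte, replicate 7, exceeded only the lowest IVM oocyte. Its difference was 3.25 in IVM and 1.94 in CNP_IVM against GV, and -1.31 between CNP_IVM and IVM, a value that came to -0.96 with TMM-like factors. Pooled over oocytes, 24664 reads in GV, 290473 in IVM and 113216 in CNP_IVM fell on DDX3X, or 111, 1099 and 431 CPM. The exact 95% Poisson intervals of these pooled levels were 109.8 to 113, 1095 to 1103 and 428 to 433 CPM, and they cover counting error only.

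DHX29, which helps the small ribosomal subunit scan structured leaders, was at 1.88, 43.2 and 53.2 CPM in GV, 49.4, 62.4 and 73.4 CPM in IVM and 59.6, 76.7 and 114 CPM in CNP_IVM oocytes. Every CNP_IVM oocyte was above every GV oocyte, but its difference of 1.04 rested on GV replicate 9, the lowest oocyte, and was 0.84 without it. It was also under 2-fold without CNP_IVM replicate 2, at 0.99, and without CNP_IVM replicate 5, at 0.95. DDX1, found in RNA granules and in the transfer RNA ligase complex, was at 40.2, 56.4 and 69.2 CPM in GV, 17.7, 25.4 and 42.2 CPM in IVM and 13.9, 17.6 and 37.3 CPM in CNP_IVM oocytes. GV and IVM oocytes overlapped for DDX1, and GV and CNP_IVM oocytes did not. Its differences against GV were -0.96 in IVM and -1.26 in CNP_IVM, and the latter was -0.56 with TMM-like factors. DHX33, the remaining member of the group, was at most 1.57 CPM in any oocyte.

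Genes listed as partners of DDX3X or of the cap-binding complex, eIF4F, lay on both sides of the GV levels. This list is wider than the complex itself and includes, for example, G3BP1 and CSNK1E. All 16 listed genes passed the filter. In IVM against GV 4 lay at least 2-fold higher and 3 lower (all genes: 15.9% and 33.0%). In CNP_IVM against GV 4 were higher and 6 lower (all genes: 15.3% and 42.0%). Their medians were 0.17 and -0.09. EIF4G2, a scaffold used in non-canonical initiation, was 1.69 higher in IVM and 1.65 higher in CNP_IVM oocytes on the log2 scale, with no overlap with GV oocytes. EIF4E1B, an oocyte form of the cap-binding protein, stood at -2.34 in IVM and -3.29 in CNP_IVM oocytes, also with no overlap. Between the cultures, PABPC1, which binds poly(A) tails, was 1.45 higher in CNP_IVM than in IVM oocytes, with overlap. G3BP1, a stress granule protein, was at -1.16, every CNP_IVM oocyte lying below every IVM oocyte. EIF4A1, the DEAD box initiation helicase named outside the DDX series, differed by -0.14 in IVM and -0.07 in CNP_IVM against GV. Its paralog EIF4A2 was at 17.1, 148 and 206 CPM in GV, 222, 304 and 487 CPM in IVM and 432, 539 and 649 CPM in CNP_IVM oocytes, without overlap between GV and either matured group.

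Among helicases of stored messenger RNA, DDX6, which holds repressed maternal transcripts in cytoplasmic granules, was at 12.2, 22.8 and 34.5 CPM in GV, 25.2, 38.1 and 44.8 CPM in IVM and 16.8, 32.9 and 35.8 CPM in CNP_IVM oocytes. The 3 groups overlapped, and the differences against GV were 0.71 and 0.35, both under 2-fold as deposited and at 1.09 and 1.02 with TMM-like factors. DHX36, which unwinds G-quadruplexes, was at 39.2, 98.6 and 123 CPM in GV, 118, 163 and 202 CPM in IVM and 172, 226 and 274 CPM in CNP_IVM oocytes. Only its GV and CNP_IVM oocytes were apart, with a difference of 1.26, and the difference between CNP_IVM and IVM was 0.46. The span of DHX36 overlaps that of ARHGEF26 in the RefSeq cattle annotation, so reads of the pair may not be separable.

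Of 20 genes for DDX6 partners, 19 passed the filter. In IVM against GV 6 were at least 2-fold higher and 4 lower (all genes: 15.9% and 33.0%). In CNP_IVM against GV 4 were higher and 5 lower (all genes: 15.3% and 42.0%). The list medians were 0.47 and 0.68. DCP1A, a decapping cofactor, was at 0, 17.8 and 22.2 CPM in GV, 47.6, 54.96 and 73.8 CPM in IVM and 49.7, 63.97 and 91.9 CPM in CNP_IVM oocytes. ZAR1, which stores maternal messenger RNA in mouse oocytes, was at 887, 995 and 2062 CPM in GV, 37.4, 129 and 261 CPM in IVM and 42.8, 57.8 and 84.4 CPM in CNP_IVM oocytes. Both genes showed no overlap between GV and matured oocytes, in opposite directions. YBX2, a germ-cell RNA-binding protein, and PATL2, an oocyte translation repressor, were also below all GV oocytes in every matured oocyte, at -2.38 and -2.06 in IVM and -2.52 and -3.03 in CNP_IVM. TNRC6A and TNRC6B, scaffolds of microRNA silencing, were above, at 1.20 and 1.40 in IVM and 1.67 and 1.06 in CNP_IVM.

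The germ-line helicases each behaved differently. DDX43, a member with restricted expression outside germ cells and tumours, was at 8.37, 46.3 and 54.4 CPM in GV, 124, 181 and 257 CPM in IVM and 92.1, 127 and 251 CPM in CNP_IVM oocytes. It was above all GV oocytes in all matured ones, by 2.11 and 1.87, with GV replicate 9 the lowest. DDX25, known in mice for storing and transporting messenger RNA in spermatids, was at 224, 497 and 509 CPM in GV, 366, 774 and 900.2 CPM in IVM and 184, 320.2 and 581 CPM in CNP_IVM oocytes. Its difference was -1.13 between CNP_IVM and IVM, where the groups overlapped, and -0.86 with TMM-like factors. Against GV it stood at 0.70 in IVM and -0.43 in CNP_IVM, the latter at 0.26 with TMM-like factors. Without GV replicate 9, the GV oocytes lay between 450.4 and 509 CPM for DDX25, and the coefficient of variation of 4.36% was the smallest of any helicase at 10 CPM or more in those 6 oocytes.

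DDX4, the germ-cell marker also called VASA, was at 2.89, 39.1 and 43.7 CPM in GV, 13.9, 23.2 and 46.2 CPM in IVM and 14.4, 19.1 and 29.3 CPM in CNP_IVM oocytes. GV replicate 9 was the lowest oocyte of all, and without it every CNP_IVM oocyte lay below every GV oocyte. The difference of DDX4 in CNP_IVM against GV was -0.83, and -1.03 without that oocyte. In IVM against GV it was -0.26, and 0.14 with TMM-like factors. TDRD9, a DExH helicase of the piRNA pathway with a name outside both series, was at -1.67 in IVM and -2.80 in CNP_IVM against GV, with no overlap in either.

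**Figure D2:**
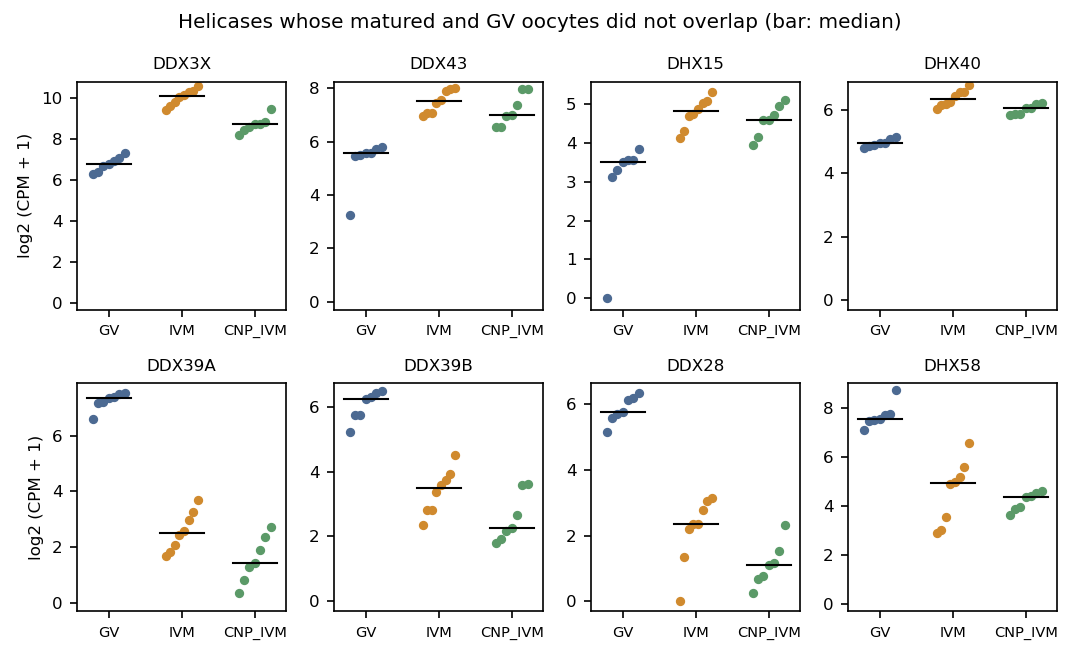
Levels of 8 helicases in single oocytes, as log2(CPM + 1), with a bar at each group median and 1 point per oocyte. Upper panels show helicases for which every matured oocyte lay above every GV oocyte, and lower panels those for which every matured oocyte lay below; the lone low GV point of DHX15, at 0 CPM, is replicate 9.

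Splicing was represented by 15 helicases. Of these, 3 were at least 2-fold higher and 1 lower in IVM against GV (all genes: 15.9% and 33.0%). In CNP_IVM against GV 2 were higher and 2 lower (all genes: 15.3% and 42.0%). The median differences were 0.25 and -0.19. DHX15, which takes spent spliceosomes apart, was at 0, 10.4 and 13.5 CPM in GV, 16.6, 27.4 and 39.1 CPM in IVM and 14.3, 23.3 and 33.6 CPM in CNP_IVM oocytes. DDX46, which acts as the branch site is recognised, was at 81.01, 143 and 154 CPM in GV, 165, 235 and 373 CPM in IVM and 382, 419 and 543 CPM in CNP_IVM oocytes. Both were above every GV oocyte in all matured oocytes. For DHX15 the differences against GV were 1.52 in IVM and 1.33 in CNP_IVM. For DDX46 they were 0.97 and 1.72, and the 3 groups followed one another without overlap, the CNP_IVM oocytes starting just above the highest IVM oocyte. The span of DDX46 overlaps that of C7H5orf24 in the annotation.

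DDX42, an ATPase associated with the U2 particle, was at 14.2, 15.5 and 72.4 CPM in GV, 35.5, 60.7 and 134 CPM in IVM and 41.2, 50.8 and 58.8 CPM in CNP_IVM oocytes. The highest GV value was replicate 9, and the next highest GV oocyte was at 20.8 CPM, below every matured oocyte. Differences of DDX42 were therefore 1.49 and 0.98 with that oocyte, and 2.05 and 1.54 without it. DDX42 overlaps FTSJ3, a ribosome biogenesis gene, in the annotation. DHX35, a component of catalytic spliceosomes, was at 62.6, 72.9 and 189 CPM in GV, 88.7, 266 and 464 CPM in IVM and 36.1, 52.3 and 75.98 CPM in CNP_IVM oocytes. Every CNP_IVM oocyte was below every IVM oocyte, with a difference of -2.30, the only helicase for which this held. The share of all genes with this pattern was 2.60%. DHX35 stood 1.59 higher in IVM against GV, where the groups overlapped only through GV replicate 9, the highest GV oocyte, and 1.89 higher without it. In CNP_IVM against GV it was at -0.71 as deposited and at 0.04 with TMM-like factors. Pooled levels were 91.6, 285 and 53.6 CPM, with exact 95% Poisson intervals of 90.3 to 92.8, 283 to 287 and 52.7 to 54.4 CPM.

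DDX39B, which joins spliceosome assembly to export as part of the TREX complex, was at 36.2, 74.99 and 89.4 CPM in GV, 4.07, 10.2 and 21.9 CPM in IVM and 2.46, 3.81 and 11.3 CPM in CNP_IVM oocytes. DDX41, a spliceosomal helicase also studied as a DNA sensor, was at 26.2, 33.9 and 44.6 CPM in GV, 9.57, 21.4 and 24.2 CPM in IVM and 2.72, 8.21 and 11.1 CPM in CNP_IVM oocytes. For both, all matured oocytes were below all GV oocytes. The differences of DDX39B were -2.55 and -3.34, and those of DDX41 were -0.85 and -2.09. Between CNP_IVM and IVM, DDX41 differed by -1.23, and by -0.91 with TMM-like factors. The other 9 splicing helicases, DDX5, DDX17, DDX20, DDX23, DDX59, DHX8, DHX9, DHX16 and DHX38, were under 2-fold in each comparison with all oocytes, from -0.78 for DHX8 to 0.69 for DHX9 in IVM against GV and from -0.92 for DHX8 to 0.95 for DHX9 in CNP_IVM against GV. GV replicate 9 set several of these values. DHX9, a helicase of transcription and RNA processing, was at 30.5 CPM in that oocyte and at 1.91 to 6.81 CPM in the other GV oocytes, below every matured oocyte, which ranged from 8.86 to 23.4 CPM. Without that oocyte DHX9 stood at 1.40 in IVM and 1.66 in CNP_IVM against GV. DHX8, which releases spliced messenger RNA, was at 10.3 CPM in GV replicate 9 and at 36.2 to 64.6 CPM in the others, and without replicate 9 every CNP_IVM oocyte was below, at -1.08. Without it DDX59 was at 0.67 and -0.15 in place of 0.25 and -0.57, and DHX16 at -0.09 and 0.06 in place of -0.50 and -0.35. Of the 9, DDX23 and DHX16 in both comparisons and DDX5, DDX20 and DDX59 in CNP_IVM against GV changed sign under another scaling.

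Several DEAH helicases are switched on by proteins with a G-patch, and 17 of 18 such genes passed the filter. In IVM against GV 5 were at least 2-fold higher and 4 lower (all genes: 15.9% and 33.0%). In CNP_IVM against GV 4 were higher and 7 lower (all genes: 15.3% and 42.0%). The medians were 0.04 and 0.07. GPATCH1, known as the partner of DHX35, was at 25.8, 33.4 and 44.9 CPM in GV, 79.3, 109.6 and 175 CPM in IVM and 53.4, 59.1 and 88.9 CPM in CNP_IVM oocytes. It lay above all GV oocytes in both matured groups, by 1.67 and 0.87, and its matured groups overlapped. GPATCH2 was at 31.8, 53.6 and 57.9 CPM in GV, 115, 128 and 145 CPM in IVM and 166, 185 and 206 CPM in CNP_IVM oocytes, with no overlap between any of the groups. GPKOW, an activator of the spliceosomal DHX16, was at -1.70 in IVM and -3.20 in CNP_IVM against GV. TFIP11, the activator of DHX15 in spliceosome disassembly, was at -0.81 and -2.34, with overlap in IVM only.

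Export helicases included the widest difference of the family. DDX39A, a close paralog of DDX39B, was at 95.3, 163 and 185 CPM in GV, 2.197, 4.70 and 12.1 CPM in IVM and 0.262, 1.72 and 5.66 CPM in CNP_IVM oocytes. No matured oocyte came near the GV range, and the differences were -4.56 and -5.53. They moved to -3.92 and -4.44 with 5 CPM added in place of 1 CPM. Pooled reads on DDX39A were 33990 in GV, 1545 in IVM and 618 in CNP_IVM, or 153, 5.85 and 2.35 CPM. The ratio of DDX39A reads to DDX39B reads had a median of 2.43 in GV, 0.562 in IVM and 0.505 in CNP_IVM oocytes. It was 1.66 or more in every GV oocyte and 1.49 or less in every matured one, so both paralogs were lower in matured oocytes and DDX39A more so. Reads that fit both paralogs may have been split or dropped in counting.

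DDX19A, a helicase that releases messenger RNA at the outer face of the nuclear pore, was at 33.1, 45.1 and 57.7 CPM in GV, 27.2, 46.7 and 68.7 CPM in IVM and 18.3, 23.8 and 30.4 CPM in CNP_IVM oocytes. The GV and CNP_IVM oocytes did not overlap, with a difference of -0.91, which was -0.21 with TMM-like factors. IVM and CNP_IVM oocytes overlapped for DDX19A, and its level was just 2-fold lower in CNP_IVM. The difference was under 2-fold without IVM replicate 8, 9 or 10 or CNP_IVM replicate 4, 6 or 7, at -0.92 to -0.98. It was also under 2-fold with TMM-like factors, at -0.68, and with quantile normalization, at -0.69. Its paralog DDX19B, of the same activity, was at 5.15, 13.3 and 16.2 CPM in GV, 4.29, 5.05 and 8.84 CPM in IVM and 2.99, 5.53 and 7.38 CPM in CNP_IVM oocytes. The DDX19B differences of -1.04 and -1.09 lay close to 2-fold, at -0.44 and -0.11 with quantile normalization, and that in IVM was -0.97 without GV replicate 1, -0.99 without GV replicate 4 and -0.9995 without GV replicate 7. DDX19B overlaps AARS1 in the annotation, and it is a near copy of DDX19A, so its counts are uncertain.

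The list for the exon junction complex and TREX also held the export factors NXF1, NXT1 and GLE1, and all 15 genes passed the filter. NXF1 and NXT1 were among the lower genes of both comparisons that follow. In IVM against GV 2 lay at least 2-fold higher and 4 lower (all genes: 15.9% and 33.0%). In CNP_IVM against GV 4 were higher and 5 lower (all genes: 15.3% and 42.0%). The medians were 0.26 and 0.21. NXF1, the main export receptor for messenger RNA, was at 51.9, 119.9 and 147 CPM in GV, 8.51, 17.2 and 29.7 CPM in IVM and 1.73, 5.57 and 11.7 CPM in CNP_IVM oocytes. Its partner NXT1 was at 121, 348 and 406 CPM in GV, 29.2, 64.7 and 68.6 CPM in IVM and 21.8, 39.9 and 68.3 CPM in CNP_IVM oocytes. Neither gene overlapped between GV and matured oocytes. THOC2, a TREX scaffold, was instead at 1.50, 29.8 and 35.6 CPM in GV, 52.3, 88.9 and 113 CPM in IVM and 84.6, 112 and 171 CPM in CNP_IVM oocytes. MAGOH, a core of the exon junction complex, was at 174, 737 and 829.8 CPM in GV, 540.3, 982 and 1474 CPM in IVM and 1767, 2213 and 2671 CPM in CNP_IVM oocytes, so that every CNP_IVM oocyte was above every other oocyte. EIF4A3, the DEAD box core of the same complex, differed by 0.14 and 0.19 against GV, with overlap.

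Ribosome biogenesis was the other role with 15 helicases. In IVM against GV 1 was at least 2-fold higher and 3 were lower (all genes: 15.9% and 33.0%). In CNP_IVM against GV 4 were higher and 3 lower (all genes: 15.3% and 42.0%). The medians were 0.42 and 0.27. The 3 lower ones were the same genes in each. DDX56, which works on the large subunit, was at 17.7, 26.9 and 72.2 CPM in GV, 1.40, 3.21 and 7.94 CPM in IVM and 0.316, 1.57 and 4.23 CPM in CNP_IVM oocytes. DDX47, a small-subunit factor known from its yeast counterpart, was at 31.01, 51.4 and 104 CPM in GV, 8.20, 26.7 and 38.6 CPM in IVM and 2.99, 11.7 and 17.5 CPM in CNP_IVM oocytes. DDX49, likewise, was at 0.763, 20.5 and 28.3 CPM in GV, 1.64, 6.96 and 13.1 CPM in IVM and 0.578, 1.69 and 3.41 CPM in CNP_IVM oocytes. DDX56 did not overlap between GV and matured oocytes, DDX47 overlapped only in IVM, and DDX49 overlapped in both through GV replicate 9. Their differences in IVM and CNP_IVM against GV were -2.83 and -3.73 for DDX56, -1.21 and -2.37 for DDX47, and -1.30 and -2.72 for DDX49, or -1.50 and -2.92 without GV replicate 9. In IVM against GV, DDX47 was at -0.83 with TMM-like factors and DDX49 at -0.97 with quantile normalization.

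DDX18, a nucleolar factor of large-subunit assembly, was at 6.92, 68.4 and 81.6 CPM in GV, 42.98, 77.4 and 158 CPM in IVM and 167, 197 and 271 CPM in CNP_IVM oocytes. DDX21, which couples ribosomal RNA transcription to processing, was at 26.8, 61.6 and 71.3 CPM in GV, 64.1, 85.6 and 111 CPM in IVM and 117, 139.9 and 179 CPM in CNP_IVM oocytes. For both, every CNP_IVM oocyte was above every GV and every IVM oocyte, by a small margin against the highest IVM oocyte. The difference between CNP_IVM and IVM was 1.22 for DDX18 and 0.74 for DDX21. Pooled DDX18 levels were 57.9, 83.5 and 206 CPM, with exact 95% Poisson intervals of 56.9 to 58.9, 82.4 to 84.6 and 204 to 207 CPM. DDX24, a nucleolar helicase, was at 162, 339.6 and 402 CPM in GV, 263, 372 and 718 CPM in IVM and 675, 902 and 1262 CPM in CNP_IVM oocytes. CNP_IVM oocytes were above all GV oocytes for DDX24 but overlapped with the highest IVM oocyte, replicate 6. Its difference of 1.05 between CNP_IVM and IVM was under 2-fold without IVM replicate 8, at 0.97, and without CNP_IVM replicate 2, at 0.95, and it was 0.999 without IVM replicate 1 and 0.993 without IVM replicate 9.

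DDX52, a small-subunit factor in yeast, was at 31.05, 42.4 and 56.1 CPM in GV, 36.9, 80.1 and 121 CPM in IVM and 99.3, 111 and 145 CPM in CNP_IVM oocytes. CNP_IVM oocytes lay above all GV oocytes and overlapped with IVM oocytes, and the differences against GV were 0.96 and 1.43. DDX55, a large-subunit factor, was at 42.5, 61.1 and 149 CPM in GV, 111, 157 and 205 CPM in IVM and 60.9, 77.7 and 138 CPM in CNP_IVM oocytes. GV replicate 9 was again the highest, and the other GV oocytes reached 79.04 CPM, below all IVM oocytes. DDX55 differed by 1.07 in IVM against GV, by 1.34 without GV replicate 9 and by 0.97 without GV replicate 2. In CNP_IVM against GV it differed by 0.27, by 0.54 without GV replicate 9 and by 1.02 with TMM-like factors. DDX50, the neighbour and paralog of DDX21, was above every GV oocyte in all matured ones by 0.97 and 0.95, just under 2-fold. The ratio of DDX21 to DDX50 reads was 0.433 to 0.895 in IVM and 0.951 to 1.26 in CNP_IVM oocytes, without overlap, and 0.609 to 1.20 in GV oocytes. The other members, DDX10, DDX27, DDX31, DDX51, DDX54 and DHX37, were between -0.75 and 0.86 in IVM and between -0.97 and 0.73 in CNP_IVM against GV. Of these, DDX27 was at 122 CPM in GV replicate 9 and at 21.3 to 35.6 CPM in the other GV oocytes. Its differences of -0.75 and -0.89 were -0.17 and -0.31 without GV replicate 9. Likewise DDX54 moved from -0.22 to 0.21 in IVM and from -0.83 to -0.39 in CNP_IVM. DDX51, at 10.4 CPM in its highest oocyte, was at -0.97 in CNP_IVM against GV, and at -1.09 without GV replicate 9.

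DDX28, a mitochondrial helicase of large-ribosome assembly, was at 34.8, 53.6 and 79.3 CPM in GV, 0, 4.13 and 7.91 CPM in IVM and 0.196, 1.15 and 3.98 CPM in CNP_IVM oocytes. No matured oocyte reached the GV range. The differences were -3.48 and -4.63, with the latter between -5.29 and -3.30 when 0.1 or 5 CPM was added in place of 1 CPM. Pooled levels of DDX28 were 59.2, 4.60 and 1.41 CPM, with exact 95% Poisson intervals of 58.2 to 60.2, 4.34 to 4.86 and 1.27 to 1.56 CPM. Between CNP_IVM and IVM, where the groups overlapped, DDX28 differed by -1.14, and by -0.995 without IVM replicate 1. That difference was -0.86 with TMM-like factors, -0.60 with quantile normalization and -0.54 with 5 CPM added. The span of DDX28 overlaps that of DUS2. DHX30, the other mitochondrial member, differed by -0.20 and -0.30 against GV, with the opposite sign under both other scalings. Without GV replicate 9, its highest GV oocyte at 52.3 CPM, they were 0.15 and 0.05. SUPV3L1, a mitochondrial RNA degradation helicase named outside both series, was at 35.2, 52.8 and 64.8 CPM in GV, 193, 271 and 411 CPM in IVM and 143, 155 and 198 CPM in CNP_IVM oocytes, above GV in every matured oocyte.

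DHX58 and DDX58, known as LGP2 and RIG-I, recognise foreign double-stranded RNA in the cytoplasm. DHX58 was at 137, 188 and 423 CPM in GV, 6.35, 29.6 and 94.9 CPM in IVM and 11.3, 19.7 and 23.6 CPM in CNP_IVM oocytes. All matured oocytes were below all GV oocytes, at -2.71 and -3.55, with GV replicate 9 the highest. DDX58 was at 23.7, 29.9 and 44.5 CPM in GV, 22.1, 33.2 and 56.7 CPM in IVM and 29.03, 36.3 and 44.4 CPM in CNP_IVM oocytes, with all groups overlapping and differences of 0.13 and 0.21. The blood and immune marker sum was also lower in every matured than in every GV oocyte, as given above. Its part in the DHX58 values was not tested.

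The functions of DHX40 and DHX57 are less well defined. DHX40 was at 26.7, 29.9 and 34.6 CPM in GV, 64.9, 80.5 and 110.3 CPM in IVM and 56.1, 65.4 and 73.4 CPM in CNP_IVM oocytes, above all GV oocytes in all matured ones by 1.44 and 1.06. It had the smallest coefficient of variation of the helicases at 10 CPM or more in GV oocytes, 8.99%, and in CNP_IVM oocytes, 11.2%. Without GV replicate 9 the value of DHX40 in GV oocytes was 9.82%, and DDX25 had the smallest, 4.36%. DHX57 was at 7.93, 23.2 and 36.5 CPM in GV, 32.9, 53.3 and 113 CPM in IVM and 25.5, 39.6 and 55.7 CPM in CNP_IVM oocytes. The groups of DHX57 overlapped, and its differences were 1.23 and 0.74. DHX32 differed by 0.48 and -0.07, and by 0.86 and 0.31 without GV replicate 9, which was at 205 CPM where the other GV oocytes lay between 47.97 and 90.1 CPM.

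The direct comparison of the cultures found few helicases at least 2-fold higher in CNP_IVM than in IVM oocytes. These were DDX18 and DDX24, 2 of 49 or 4.08%, where 1.86% of all genes were. Another 9, or 18.4%, were at least 2-fold lower, where 14.8% of all genes were. They were DHX35, DDX49, DDX51, DDX3X, DDX41, DDX47, DDX28, DDX25 and DDX19A. The call of DDX51 rested on few reads and on IVM replicate 9. Its mean was 2.60 CPM with IVM alone and 0.365 CPM when CNP came first. IVM replicate 9 held 10.4 CPM of DDX51, where the next highest, replicate 1, held 3.05 CPM. Without IVM replicate 9, 7 helicases were at least 2-fold lower, where 12.7% of all genes were. DDX51 and DDX19A were then no longer among them. The helicase median of -0.30 lay beside an all-gene median of -0.28, and at -0.022 beside -0.035 with TMM-like factors. Those factors left 3 helicases lower, DHX35, DDX51 and DDX49, and 2 higher, where 7.86% and 4.14% of all genes were. Quantile normalization left DHX35, DDX3X and DDX25 lower, so only DHX35 was lower under both. Among genes called apart, 11.1% were higher over all genes as deposited, 34.5% with TMM-like factors and 39.7% with quantile normalization. Every CNP_IVM oocyte was above every IVM oocyte for DDX18, DDX21 and DDX46, 6.12% of the helicases against 1.38% of all genes, and below for DHX35, 2.04% of the helicases.

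**Figure D3:**
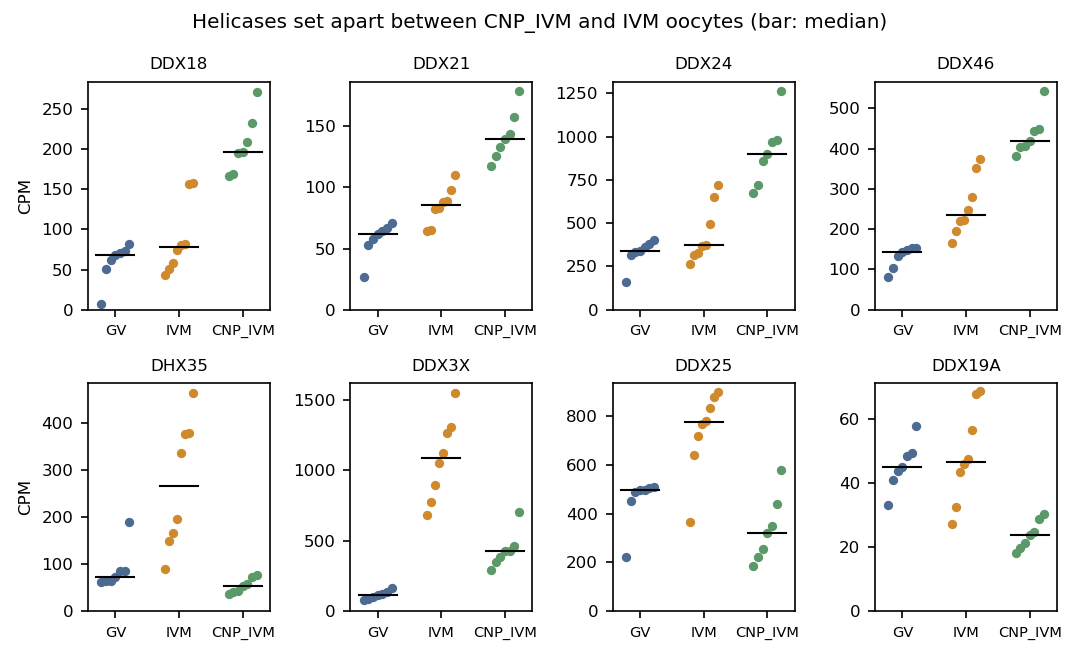
Levels in CPM of 8 helicases in single oocytes, with a bar at each group median and 1 point per oocyte, on linear axes from 0. CNP_IVM oocytes of DDX18, DDX21 and DDX46 start at 167, 117 and 382 CPM, above the highest IVM oocytes at 158, 111 and 373 CPM, while those of DHX35 end at 75.98 CPM, below the lowest IVM oocyte at 88.7 CPM.

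The family as a whole took a larger share of reads in matured oocytes. Its summed level was 3292 ± 157 CPM (SD over 7 oocytes) in GV, 5164 ± 501 CPM (SD over 8 oocytes) in IVM and 4370 ± 284 CPM (SD over 7 oocytes) in CNP_IVM oocytes. The highest GV oocyte, at 3575 CPM, was below the lowest CNP_IVM oocyte, at 3985 CPM, and IVM and CNP_IVM oocytes overlapped. With TMM-like factors the order of the matured groups turned, with IVM at 5305 CPM and CNP_IVM at 5518 CPM. Longer transcripts give more reads, so the sum weights members by length. DDX3X took 3.44% of the family's reads on average in GV, 20.7% in IVM and 10.1% in CNP_IVM oocytes. Without DDX3X the sums were 3180 ± 171, 4085 ± 325 and 3937 ± 386 CPM, and the GV oocytes then overlapped with both matured groups. DDX24 took 10.0%, 8.70% and 20.7% of the reads in GV, IVM and CNP_IVM oocytes, and DDX25 took 13.8%, 14.3% and 7.69%.

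**Figure D4:**
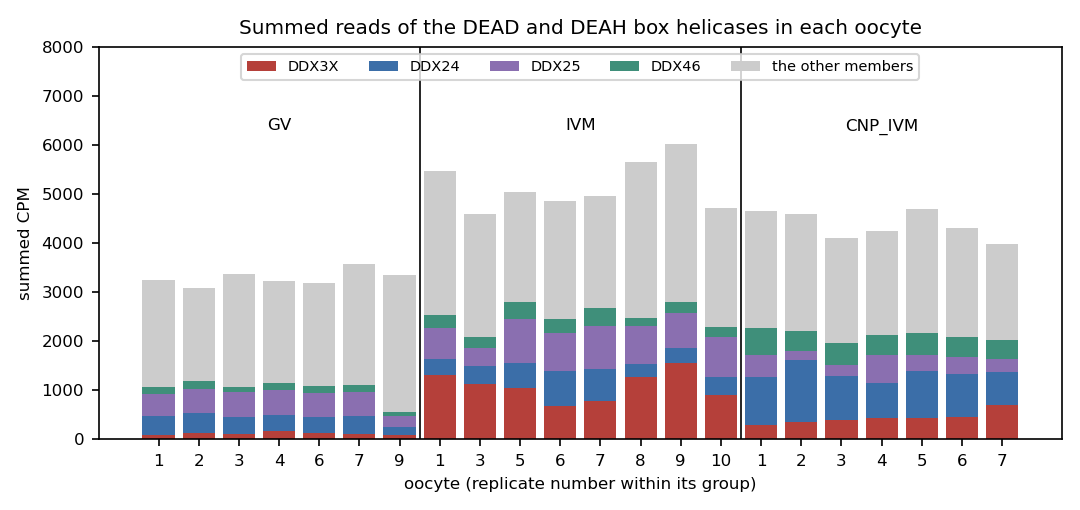
Summed CPM of all 50 helicases in each oocyte, stacked from 0, with DDX3X, DDX24, DDX25 and DDX46 coloured and the other members in grey. Bars of GV oocytes end between 3092 and 3575 CPM, those of IVM oocytes between 4585 and 6022 CPM and those of CNP_IVM oocytes between 3985 and 4703 CPM, and the DDX3X segment is tallest in IVM oocytes.

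Of the 49 helicases, 19 had their highest group mean in GV, 19 in IVM and 11 in CNP_IVM oocytes, or 38.8%, 38.8% and 22.4%. Over all genes the shares were 53.8%, 27.4% and 18.8%. Oocytes of a group also differed among themselves. For helicases of at least 10 CPM the median coefficient of variation was 30.7% in GV, 35.7% in IVM and 23.9% in CNP_IVM oocytes, where all genes at that level had 32.0%, 31.9% and 25.6%. Without GV replicate 9 the GV median was 18.4%. GV replicate 9 was the lowest GV oocyte for 25 and the highest for 15 of the 49 helicases, or 51.0% and 30.6%, where it was so for 46.4% and 33.3% of all genes. IVM replicates 8 and 9 were the highest IVM oocytes for 16 and 12 helicases, or 32.7% and 24.5%, against 27.8% and 24.3% of all genes. IVM replicate 7, with the fewest reads, was the lowest for 14, or 28.6%, against 24.4% of all genes.

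**Figure D5:**
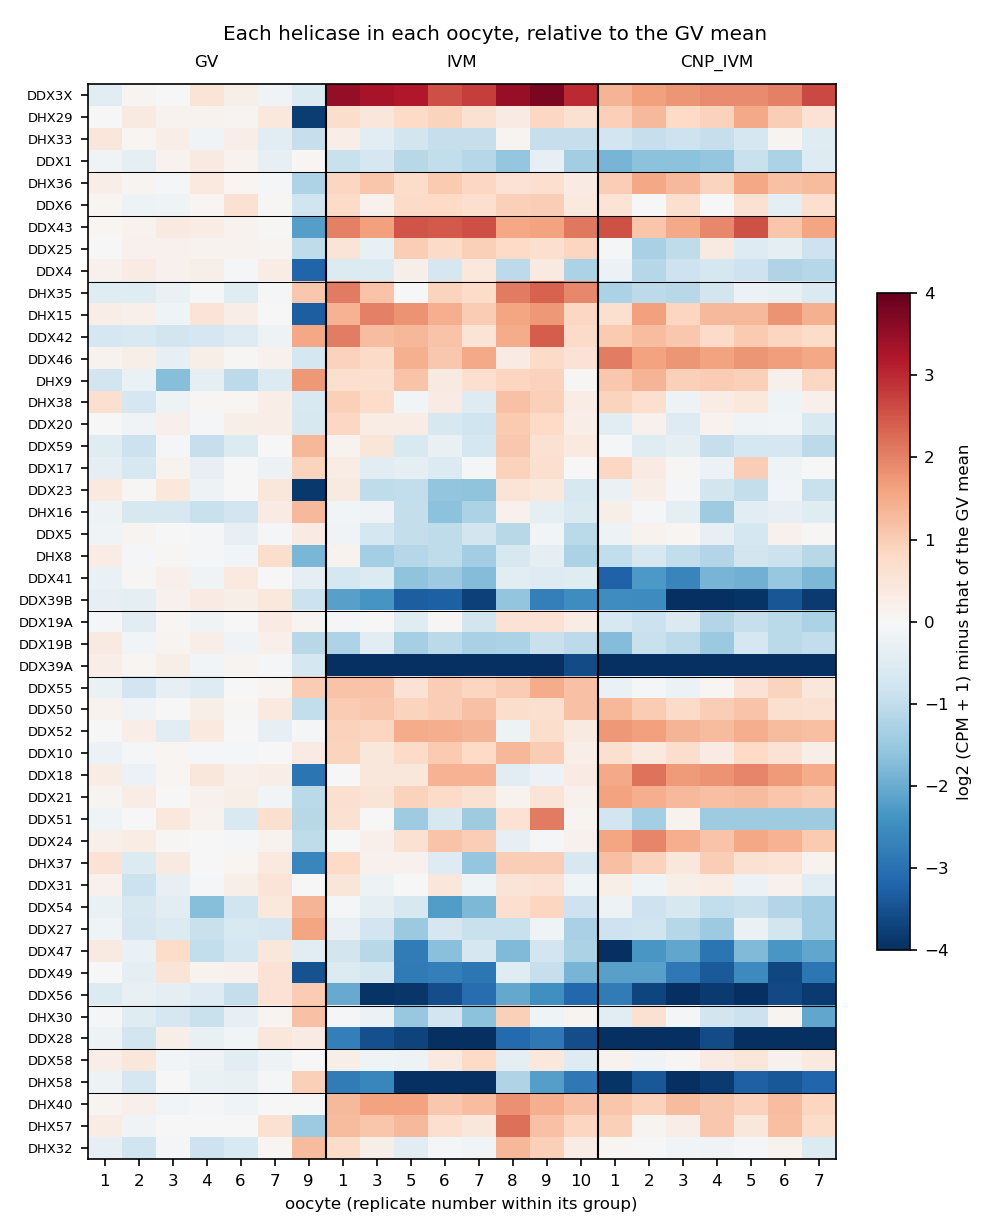
Log2(CPM + 1) of each of the 49 helicases in each oocyte minus that of the GV mean, with 1 column per oocyte, rows ordered by role, and colours held at 4 and -4 for values beyond them. The DDX3X row is red across matured oocytes, the DDX39A, DDX28, DDX56 and DHX58 rows are blue, and the column of GV replicate 9 departs from the other GV columns in both directions.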

How the data were processed

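The authors deposited 1 table of single-oocyte values, of which 22 of 29 labelled samples have a column. It is named for TPM, but the deposited values are CPM: each library has a smallest step of which its values are multiples, whatever the gene, and 100% of values gave whole reads with a tolerance of 0.01 read. Libraries were made with SMART-Seq v4 and Nextera XT and read in pairs, per the labels' protocols. Tools listed in the submitters' processing notes, without order or role, are featureCounts 2.0.1, edgeR, HISAT2 2.2.1, Trim Galore 0.6.7 and FastQC. The notes also name a mouse genome build, while the gene names are cattle symbols, so no coordinates or sequences are given. No kit step that marks strand is stated, so reads of overlapping genes cannot be told apart. In the RefSeq table of cattle genes (assembly ARS-UCD2.0) 49 of 50 helicase symbols matched, and the spans of 8 overlap another gene listed in the expression table.

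Each sample is 1 oocyte with no donor or culture named, so each group counted as 1 sample. No test, count model or p-value was used between groups. A gene was kept where 6 or more libraries had it at 1 CPM or above. Differences are log2 ratios of group means with 1 CPM added, and at least 2-fold was the limit. Values are printed in full for helicases at 10 CPM or more in a group mean and at least 2-fold apart in any comparison, up to 30, and for DDX3X, DDX6, DDX4 and DHX36. Related genes are named, up to 2 per direction and comparison, by size of difference from 10 CPM. EIF4A1, EIF4A3 and DDX50 were named after their values had been seen. The members, roles and lists were chosen with earlier results of these data known. The alternatives tried were 0.1 and 5 CPM added, no filter, TMM-like factors, quantile normalization, group medians, a 1.5-fold limit and leaving out each oocyte. Within each group no pair of libraries was a copy, since chi-square over its degrees of freedom was 37.96 or more. Steps were tested on simulated data. Python 3.11.15, numpy 2.4.6, pandas 2.3.3, scipy 1.17.1 and matplotlib 3.10.9 were used.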

Additional observations from a re-analysis of the deposited data

Results flagged for a closer look

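Within each group, the highest and the lowest oocyte of each helicase printed in full and of the summed level were compared with the spread of the others by Dixon's criterion, which chance passes in about 1 of 20 groups. Of 90 groups, 19 passed, and 13 of these were GV replicate 9. The rate of 1 in 20 is for independent groups, while these share oocytes. Only these groups were looked at, so no share of all genes stands beside the counts. Over all genes, GV replicate 9 was the lowest GV oocyte for 46.4% and the highest for 33.3%. That oocyte stood below the other GV oocytes for DDX18 at 6.92 CPM, DDX21 at 26.8 CPM, DDX24 at 162 CPM, DDX25 at 224 CPM, DDX4 at 2.89 CPM, DDX43 at 8.37 CPM, DHX15 at 0 CPM, DHX29 at 1.88 CPM and DHX36 at 39.2 CPM. It stood above them for DDX42 at 72.4 CPM, DDX55 at 149 CPM, DHX35 at 189 CPM and DHX58 at 423 CPM.

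Among the IVM oocytes, DDX19B was set apart in replicate 3 at 8.84 CPM, and DHX57 and DHX58 in replicate 8 at 113 and 94.9 CPM. Among the CNP_IVM oocytes, DDX3X was set apart in replicate 7 at 701 CPM, and DDX46 and DDX56 in replicate 1 at 543 and 4.23 CPM. All of these were the highest oocyte of their group.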

How the results depend on the processing

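No called difference changed sign. Counts below are of helicases at least 2-fold apart, each with the share of all genes under the same setting in parentheses. With TMM-like factors, 18 were higher in IVM against GV (25.2%) and 20 in CNP_IVM against GV (28.2%), both with a helicase median of 0.62, while 3 were lower in CNP_IVM against IVM (7.86%), with a median of -0.022. The summed level was then 2546 CPM in GV and 5518 CPM in CNP_IVM oocytes. With quantile normalization, 15 were higher (26.4%) and 5 lower (24.1%) in IVM against GV, with a median of 0.60, 19 were higher in CNP_IVM against GV (29.8%), with a median of 0.47, and 3 were lower in CNP_IVM against IVM (5.94%), with a median of -0.077. With group medians the CNP_IVM against GV median was 0.21. With 5 CPM added, 3 were lower in CNP_IVM against IVM (6.27%). At 1.5-fold, 17 were higher (26.96%) and 13 lower (42.9%) in IVM against GV, 18 lower in CNP_IVM against GV (50.6%), and 5 higher (6.56%) and 16 lower (31.7%) in CNP_IVM against IVM. Leaving out single oocytes gave 1 to 2 higher in CNP_IVM against IVM (1.43% to 2.19%). DDX24 was lost without IVM replicate 1, 8 or 9 or CNP_IVM replicate 2. Without GV replicate 9, 11 helicases had every IVM oocyte above every GV oocyte, as had 14.0% of all genes, an alternative chosen after seeing the data. Among single-helicase values under all alternatives, 1742 moved by less than the spread between oocytes and 56 by more. Another scaling turned the sign of small differences for 5 helicases between IVM and GV, 11 between CNP_IVM and GV and 10 between the cultures. These counts have no share of all genes beside them, and the median of all genes also moved under these scalings, as given above. No paired analysis was possible because the labels tie no oocyte of one group to an oocyte of another by donor or culture, and the result comes from no test. Differences of members near the filter rest on few reads and depend on the CPM added.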
